A study of Homo sapiens with 8 samples.

Results

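Histone H3 acetylated at lysine 27 (H3K27ac) is found at promoters and enhancers that are in use. Enhancers often lie in groups, and a stretch of DNA that holds several of them near an important gene of a cell type is called a stretch enhancer or super-enhancer. BET proteins bind acetylated lysines through their bromodomains and are known for gathering at such groups, and I-BET151 occupies those bromodomains. Described here are clusters of H3K27ac peaks that lay away from gene starts in human pancreatic progenitors (PPs) grown without the inhibitor, and what was called at the same places after 7 days with it.

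The clusters were chosen by the 2 DMSO peak lists. A peak was called distal if its summit lay more than 3 kb from all protein-coding transcription starts of GENCODE release 44 (hg38). Distal peaks that overlapped between the 2 DMSO lists were merged, which gave 2891 merged peaks. Merged peaks were joined into 2003 units where the gap between neighbours stayed within a fixed limit, which lies between the largest joined gap of 12497 bp and the smallest unjoined gap of 12518 bp, and 184 units with at least 3 merged peaks were kept as clusters. They held 773 merged peaks, termed members below. The other 2118 distal merged peaks stood alone (1520 units) or in pairs (299 units). Over the 4 lists the series held 15752 merged regions of any kind.

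H3K27ac chromatin immunoprecipitation and sequencing was carried out on PPs made from the human embryonic stem cell line MEL1, an established line, so that a single genetic background is represented. The study's methods name the line as MEL1 INS GFP/W, which carries a GFP reporter in the insulin gene. All cells grew in EF6, a basal medium with the growth factors EGF and bFGF and an inhibitor of the TGFβ receptor. One group received the solvent DMSO and the other 1 μM I-BET151, for 7 days, with 2 H3K27ac libraries in each group, and each had its own peak list. Another 4 libraries were inputs, sequenced from chromatin without immunoprecipitation, and were used by the authors as the background of the peak calls. The labels do not say whether replicates came from separate cultures, so the spread between them may be technical.

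The 4 lists held between 12312 and 14248 peaks, and 14.1 to 17.9% of them were distal. Distal peaks numbered 2423 and 2549 in DMSO replicates 1 and 2, and 2051 and 1736 in I-BET151 replicates 1 and 2. The lists hold no read counts, but the fold of a peak and its p-value together fix the number of ChIP reads at its summit and the local input level. Depth was worked out from these with an assumed genome size of 2.7e+09 bp. The fragment length was taken as the narrowest peak of each list, 247 to 272 bp. Depth on these assumptions ran from 7.76 to 9.84 M (mega) ChIP reads. DMSO replicate 1 came out at 7.96 M and I-BET151 replicate 2 at 8.04 M. Their assumed fragment lengths were 272 and 249 bp, so which of the 2 was deeper is not established. The inputs were shallower, at 3.04 and 2.89 M for DMSO replicates 1 and 2 and 3.04 and 2.67 M for I-BET151 replicates 1 and 2. I-BET151 replicate 2 thus had the shallowest input as well as the fewest peaks, and the part of input depth in the lists was not tested. The PP marker genes PDX1, NKX6-1, SOX9, FOXA2, GATA4, GATA6 and ONECUT1 each had a peak at a transcription start in all 4 libraries. No spike-in is described in the sources used here, so a change shared by the whole genome could not be measured, and fewer acetylated cells and less acetylation per cell cannot be told apart.

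The clusters were mostly short. A cluster held 3 merged peaks in 97 cases, 4 in 45, 5 in 18 and at least 6 in 24, with a maximum of 20. The 299 pairs were the units just outside the limit of 3. The member summit nearest to a protein-coding start lay 3011 bp from it. The span had a median of 10.0 kb and ran from 1.61 to 44.3 kb. In DMSO the length covered by peaks had a median of 1.70 kb per cluster, and the start of the nearest protein-coding gene lay at a median distance of 12.4 kb from the closest member. Clusters lay on 23 chromosomes, with 20 on chromosome 1, 20 on chromosome 17 and 17 on chromosome 19. Of the 184 clusters, 15 spanned a protein-coding start, 96 overlapped the body of a protein-coding gene and 57 lay within 5 Mb of a chromosome end.

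Sequences of 5 clusters on which the results turn are shown first. Each is the 200 bases of hg38, plus strand, centred on the summit of the strongest member in DMSO, and capitals mark CG dinucleotides. The first 2 come from clusters among those with the longest coverage in DMSO, the next from a cluster with more coverage after I-BET151, and the last pair from clusters without any I-BET151 peak.

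ZFPM1, chr16:88505213-88505412, intron of ZFPM1: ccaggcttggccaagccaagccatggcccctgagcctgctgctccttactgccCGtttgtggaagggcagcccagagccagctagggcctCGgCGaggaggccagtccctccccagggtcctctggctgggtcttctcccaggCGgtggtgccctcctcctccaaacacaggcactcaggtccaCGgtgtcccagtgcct

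PRDM16, chr1:3340881-3341080, intron of PRDM16: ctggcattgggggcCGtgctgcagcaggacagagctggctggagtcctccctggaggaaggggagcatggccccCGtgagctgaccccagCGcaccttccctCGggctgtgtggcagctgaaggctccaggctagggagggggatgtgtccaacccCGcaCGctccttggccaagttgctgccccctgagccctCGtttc

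NOTCH1, chr9:136597284-136597483, intergenic: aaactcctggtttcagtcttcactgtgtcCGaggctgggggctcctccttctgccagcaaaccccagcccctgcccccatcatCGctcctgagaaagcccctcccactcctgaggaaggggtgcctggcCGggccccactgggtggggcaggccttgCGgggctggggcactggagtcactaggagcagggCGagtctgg

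LAMA5, chr20:62361498-62361697, intron of LAMA5: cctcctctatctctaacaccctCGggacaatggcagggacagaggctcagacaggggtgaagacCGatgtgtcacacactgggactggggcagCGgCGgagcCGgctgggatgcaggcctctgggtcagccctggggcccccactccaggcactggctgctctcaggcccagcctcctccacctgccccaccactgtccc

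PPP2R2D, chr10:131749544-131749743, intergenic: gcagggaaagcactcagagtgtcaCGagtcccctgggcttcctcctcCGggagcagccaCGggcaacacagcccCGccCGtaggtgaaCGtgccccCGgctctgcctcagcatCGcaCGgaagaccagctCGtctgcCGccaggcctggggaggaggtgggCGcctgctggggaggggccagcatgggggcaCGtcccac

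These windows are rich in G and C, and most hold few CG dinucleotides. Their GC content ran from 66.5% in the NOTCH1 window to 70.5% in the PPP2R2D window. The ZFPM1, NOTCH1 and LAMA5 windows held 5 CG dinucleotides each, the PRDM16 window 7 and the PPP2R2D window 13. Some windows that are not printed held more, with 23 in the SLC38A10 cluster and 19 in the SKIDA1 cluster. Over all members GC content was high and CG dinucleotides were few for the base composition. The median GC content of member peaks was 63.0%, against 63.3% in other distal peaks and 67.9% in promoter peaks of DMSO replicate 1. The observed number of CG dinucleotides relative to that expected from base composition had a median of 0.30 in members, 0.41 in other distal peaks and 0.80 in promoter peaks. Words of 12 bases that occurred more than once within the same peak were counted as repeated sequence. They took up more than 20% of the sequence in 1.29% of members and in 6.61% of other distal peaks.

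Short words of known transcription factors were counted in the 500 bp around each summit, on both strands. TGANTCA, the word bound by AP-1 (the FOS and JUN dimer), stood in 12.3% of members and 11.9% of other distal peaks, but in 5.02% of promoter peaks. The TEAD word GGAATG stood in 24.2% of members, 24.9% of other distal peaks and 15.3% of promoter peaks. The word of RBPJ, the DNA-binding partner of Notch, is TGGGAA and was found in 49.3% of members, 44.5% of other distal peaks and 29.3% of promoter peaks. The ETS word CCGGAAG went the other way, with 5.43% of members, 8.07% of other distal peaks and 16.9% of promoter peaks. The GATA word AGATAA stood in 9.44% of members and 9.16% of other distal peaks. By these words members resembled the other distal peaks and differed from promoters. Words as short as those of TEAD and RBPJ occur often by composition, and a match is not a binding site.

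Members tended to lie towards chromosome ends and in introns. Within 5 Mb of an end lay 263 of 773 members, 34.0% (Wilson 95% interval 30.8 to 37.4%), against 20.4% (18.7 to 22.2%) of other distal peaks. All intervals of shares cover counting error only, and neighbouring members are not independent. Introns of protein-coding genes held 45.5% of members and 35.3% of other distal peaks, intergenic sequence 33.5 and 35.3%, and noncoding genes 17.9 and 23.8%. A start of a gene of any type, noncoding genes included, lay within 3 kb of 21.7% of members and 29.6% of other distal peaks. Members were 450 bp wide at the median, against 395 bp for other distal peaks.

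Covered length was lower in these clusters after I-BET151. Distal peaks covered 449 kb of the clusters in DMSO replicate 1, 425 kb in DMSO replicate 2, 369 kb in I-BET151 replicate 1 and 316 kb in I-BET151 replicate 2. Both I-BET151 libraries were below both DMSO libraries, with means of 342 ± 37.5 kb (SD, n = 2) and 437 ± 17.1 kb (SD, n = 2), so that 78.3% of the DMSO length was covered after treatment. Because the clusters were selected on the DMSO lists, DMSO has an advantage here, and no test is given.

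Each DMSO list was therefore held out in turn. In 149 clusters set on the list of DMSO replicate 1 alone, the held-out DMSO replicate 2 covered 360 kb, I-BET151 replicate 1 covered 325 kb and I-BET151 replicate 2 covered 276 kb. The I-BET151 libraries thus reached 90.3 and 76.8% of the held-out DMSO library. In 152 clusters set on DMSO replicate 2, the held-out DMSO replicate 1 covered 391 kb and the I-BET151 libraries 337 and 296 kb, which is 86.1 and 75.9%. Both I-BET151 libraries were lower in both settings, by less than in the clusters set on both DMSO lists.

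When the same rule was applied to each library by itself, clusters were fewer after I-BET151. DMSO replicates 1 and 2 gave 149 and 152 clusters, and I-BET151 replicates 1 and 2 gave 119 and 90. The means were 150.5 ± 2.12 and 104.5 ± 20.5 clusters (SD, n = 2 each), and the I-BET151 mean was 46 lower, p = 0.333 in an exact permutation test (two-sided, 6 assignments of the libraries), the smallest p these 4 libraries allow. Clusters held 25.3% of the distal peaks of each DMSO library and 25.6 and 23.6% of those of the I-BET151 libraries. The number of clusters and the number of distal peaks were thus lower together, while the share of distal peaks that stood in clusters overlapped between the groups.

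Clusters set on all 4 lists favour neither group. There were 224 of them, with 966 merged peaks. The DMSO libraries covered 482 and 455 kb of them, and the I-BET151 libraries 439 and 367 kb, with means of 468 ± 18.6 and 403 ± 51.3 kb (SD, n = 2 each). The difference of −65.5 kb gave p = 0.333 in the same exact permutation test. I-BET151 replicate 2 lay further from the DMSO libraries than I-BET151 replicate 1 did.

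Both of these results depended on the length of the lists. When each list was cut to its 12312 most significant peaks, the length of the shortest, the libraries gave 101 and 100 clusters in DMSO and 110 and 90 in I-BET151. In 180 clusters set on these 4 equal lists, DMSO covered 388 and 346 kb and I-BET151 covered 399 and 349 kb, so that the mean of I-BET151 was higher by 6.86 kb and the groups overlapped. In clusters set on the 2 shortened DMSO lists (122 clusters) the covered length was 332 and 296 kb in DMSO, against 285 and 252 kb in I-BET151, 85.5% of DMSO.

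The mirror image, 134 clusters set on both I-BET151 lists, was covered over 332 and 313 kb by the DMSO libraries and over 385 and 327 kb by the I-BET151 libraries. The I-BET151 mean was 110% of DMSO here, with DMSO replicate 1 above I-BET151 replicate 2. An I-BET151 cluster touched 99 of the 184 DMSO clusters (53.8%), and a DMSO cluster touched 99 of the 134 I-BET151 clusters (73.9%).

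**Figure D1:**
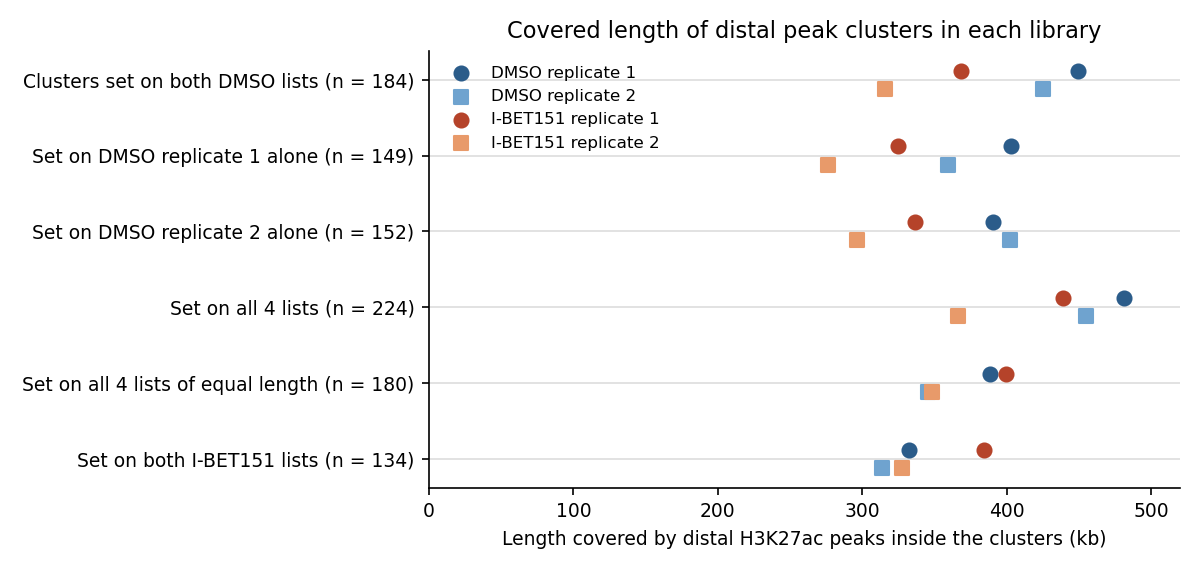
Length covered by distal H3K27ac peaks (kb, horizontal axis) inside clusters set in 6 ways (rows, n clusters), with 1 point per library. In clusters set on both DMSO lists the DMSO libraries reach 449 and 425 kb and the I-BET151 libraries 369 and 316 kb; with lists of equal length the 2 groups overlap.

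The lower coverage of the DMSO clusters was mostly at members that were no longer called. Relative to the DMSO mean of 437 kb, coverage in I-BET151 replicate 1 fell by 95.9 kb at 283 members without a peak, and in I-BET151 replicate 2 it fell by 118 kb at 352 such members. At the members that were called, coverage fell by 9.70 kb in I-BET151 replicate 1 (490 members) and by 26.2 kb in I-BET151 replicate 2 (421 members). Peaks between the members added 37.1 and 22.9 kb. Coverage inside a member cannot exceed the member, so these parts are bounded by the choice of members.

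Cluster by cluster, most were covered less after I-BET151. In 112 of the 184 clusters (60.9%) both I-BET151 libraries were below both DMSO libraries, in 19 (10.3%) both were above, and in 53 the groups overlapped. Of all 2003 joined distal units, pairs and single peaks included, 41.2% were lower and 4.74% higher by the same reading. Pairs alone were lower in 54.5% and higher in 9.36% of cases, closer to the clusters. A unit called in only 1 DMSO library cannot be read as lower, which holds back the share of single peaks, and the DMSO lists chose clusters and units alike. The median difference was −0.52 kb per cluster, against −0.14 kb over all units.

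Taken as net covered length, which also counts I-BET151 peaks between the members, large clusters stood closer to their DMSO level than small ones. Clusters of 3 merged peaks reached 69.4% of their DMSO length in I-BET151, and those of 4 or 5 reached 68.4%. The 24 clusters of 6 or more covered 147 and 139 kb in DMSO, against 145 and 134 kb in I-BET151, 97.5% of DMSO. Single peaks reached 65.0% and pairs 65.5%. The value of the large clusters was lower without a few of them. Without the 3 large ones nearest to ZFPM1 and PRDM16, the remaining 21 covered 104 and 98.7 kb in DMSO, against 92.8 and 83.1 kb in I-BET151, 86.9% of DMSO.

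In 21 clusters neither I-BET151 library had any peak. Of these, 15 held 3 merged peaks and 6 held 4 or 5, and none of the 24 larger clusters was among them. Over all joined units 36.4% were at 0 in both I-BET151 libraries, and 11.4% of the clusters. A unit is at 0 only if none of its members is called, which is harder to reach with more members. The share was 41.5% for single peaks, 25.8% for pairs and 15.5% for clusters of 3, so the lower share of clusters is not read as a trait of them. Conversely, all members were called in both I-BET151 libraries in 33 clusters. At least 3 distal peaks of the library itself stood in 151 and 147 of the 184 spans in DMSO, and in 88 and 68 of them in I-BET151.

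**Figure D2:**
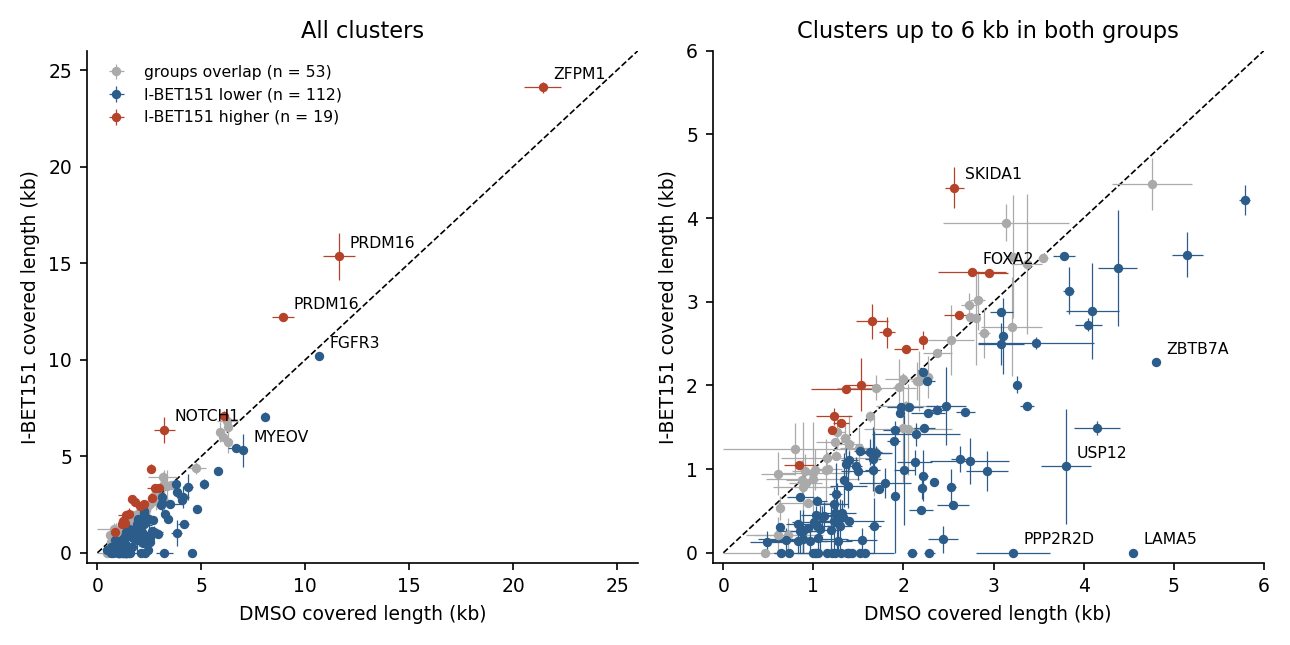
Covered length (kb) of each of the 184 clusters, as the mean of the 2 DMSO libraries (horizontal) and of the 2 I-BET151 libraries (vertical), with bars from the lower to the higher replicate and a dashed line of equality; the right panel enlarges the clusters up to 6 kb. Blue points (112) lie below the line in both I-BET151 libraries, red points (19) above it, and LAMA5 and PPP2R2D stand at 0 after I-BET151.

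The clusters with the longest coverage in DMSO are given first, each named after the gene with the closest protein-coding start, which need not be its target. Lengths given for a cluster are those covered by distal peaks. The longest lay within ZFPM1, which encodes a cofactor of GATA factors (chr16:88487450-88527468, 17 merged peaks, of which 16 in introns). It measured 22.3 and 20.5 kb in DMSO, against 23.8 and 24.4 kb in I-BET151. Both I-BET151 libraries were higher, by 2.68 kb on average and by 5.35 kb with lists of equal length.

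PRDM16, which encodes a zinc-finger transcription factor, held 4 clusters in its introns. The one with the most members (chr1:3313507-3356522, 20 merged peaks) measured 12.4 and 10.9 kb in DMSO, against 16.6 and 14.1 kb in I-BET151. Another with 14 members (chr1:3105112-3139641) went from 8.42 and 9.43 kb to 12.3 and 12.1 kb. In these large clusters both I-BET151 libraries were above both DMSO libraries, and 17 of 20 and 14 of 14 members were called in both of them. The small clusters of the gene, with 3 and 4 members, overlapped between the groups, at 2.22 and 2.08 kb against 2.28 and 1.82 kb and at 2.96 and 2.82 kb against 2.33 and 2.92 kb. More coverage was therefore seen in some clusters of the gene and not in others.

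The cluster upstream of and across the start of FGFR3, a fibroblast growth factor receptor (chr4:1765894-1798350, 8 merged peaks), measured 10.6 and 10.8 kb in DMSO, against 10.2 and 10.1 kb in I-BET151. All 8 members were called in both I-BET151 libraries, and the difference of −0.50 kb was small against the length. The groups overlapped there when the lists had equal length.

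The cluster nearest to MYEOV (chr11:69414709-69450603, 16 merged peaks) lay among long noncoding RNA genes on chromosome 11. It went from 7.04 and 6.99 kb to 6.17 and 4.47 kb. Both I-BET151 libraries were lower, and 5 of the 16 members had no I-BET151 peak.

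Of the remaining clusters among the 10 longest, those nearest to SLC38A10, an amino acid transporter, and RAI1, a transcriptional regulator, were lower in both I-BET151 libraries, by 1.00 and 1.22 kb. The SLC38A10 cluster overlapped between the groups with lists of equal length. Those nearest to CCDC188, ARID3A, a DNA-binding protein, and VAV2, a guanine nucleotide exchange factor, overlapped between the groups, with differences of −0.57, 0.24 and 0.60 kb. The longest clusters thus went in both directions: 3 were higher in I-BET151, 4 were lower and 3 overlapped, and all of them kept peaks in both I-BET151 libraries. Over all clusters 10.3% were higher and 60.9% lower. The higher ones were those of ZFPM1 and PRDM16, and with 10 clusters nothing particular to the longest is read from the counts.

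The largest falls were in clusters shorter than the 10 longest. The LAMA5 cluster lies in introns of the gene, which encodes the α5 chain of laminin in basement membranes (chr20:62354839-62363906, 4 merged peaks). It measured 4.53 and 4.58 kb in DMSO, against 0 kb in both I-BET151 libraries. With lists of equal length the difference was −2.81 kb in place of −4.55 kb. Its 4 members were called in both DMSO libraries, the tallest with 30.9 and 28.0 RPM at the summit. RPM is the number of ChIP reads at a summit divided by the depth of the library in M, and carries the assumptions made for depth.

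The PPP2R2D cluster, named after a regulatory subunit of protein phosphatase 2A whose start lies 149 kb away (chr10:131747938-131752379, 3 merged peaks), measured 2.81 and 3.62 kb in DMSO, against 0 kb in I-BET151. Its tallest summit reached 15.8 and 13.9 RPM. An absent peak means that no peak passed the threshold of the authors' caller, and the level of acetylation at these places after I-BET151 is not known from the lists.

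The USP12 cluster, named after a deubiquitinase (chr13:26950489-26980445, 8 merged peaks), went from 4.08 and 3.53 kb to 1.72 and 0.341 kb. That nearest to C1orf159 (4 merged peaks) went from 3.89 and 4.41 kb to 1.57 and 1.41 kb. The ZBTB7A cluster, in introns of a gene for a transcriptional repressor (3 merged peaks), went from 4.85 and 4.75 kb to 2.28 and 2.27 kb. In these 3 clusters some peaks were retained, and in the ZBTB7A cluster all 3 members were still called in both I-BET151 libraries.

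The largest rises were those at PRDM16 and ZFPM1 described above and at NOTCH1 and SKIDA1. The NOTCH1 cluster lies in intergenic sequence upstream of the gene for the Notch receptor, with 24987 bp between its closest summit and the start (chr9:136570901-136600517, 7 merged peaks). It measured 2.70 and 3.73 kb in DMSO, against 5.70 and 7.04 kb in I-BET151. Notch signaling is known to keep PPs from differentiating early.

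Summits in the NOTCH1 cluster were higher as well. The tallest member reached 20.2 and 18.8 RPM in DMSO and 35.5 and 33.0 in I-BET151. New peaks stood between the members, and the 2 members at the far end from the start of the cluster were covered by a single I-BET151 peak. However, 2 of the 7 members, each called in 1 DMSO library, had no I-BET151 peak.

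The SKIDA1 cluster (chr10:21494711-21510680, 3 merged peaks, partly in the noncoding gene MIR1915HG) went from 2.46 and 2.67 kb to 4.13 and 4.61 kb. Its tallest summit reached 45.3 and 40.3 RPM in DMSO and 54.8 and 53.2 in I-BET151. All 3 members were called in all 4 libraries or in all but 1 of them.

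**Figure D3:**
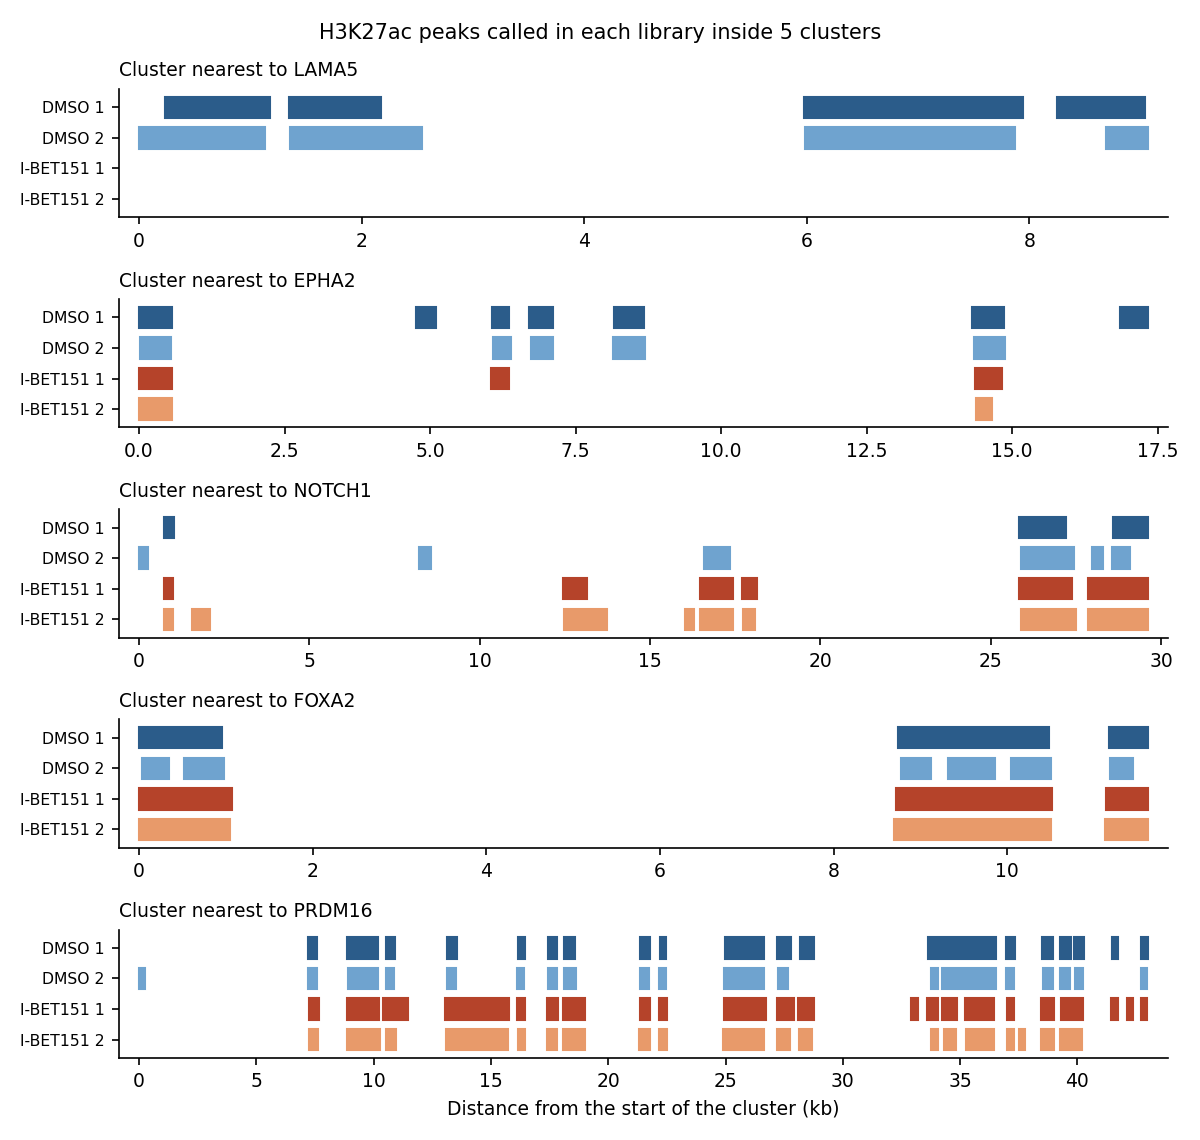
Distal H3K27ac peaks (boxes) called in each library (rows) inside 5 clusters, by distance from the start of the cluster (kb). The LAMA5 cluster has no I-BET151 peak, the EPHA2 cluster keeps some of its members, the NOTCH1 cluster gains peaks between its members, and the FOXA2 cluster and the longer PRDM16 cluster are covered in all 4 libraries.

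Clusters near genes of the listed functions were few. Of 36 genes of pancreatic progenitors and of the Notch pathway, 5 were closest to a cluster or had their start in one. The clusters of FOXA2, MEIS1 and NOTCH1 were higher in both I-BET151 libraries, that of HNF4A was lower and that of ONECUT2 overlapped. Over all clusters 10.3% were higher, and the median difference of these 5 was 0.221 kb against −0.52 kb over all clusters. These are 5 clusters, named from a list drawn up with earlier results known, and nothing particular to the list is read from them.

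FOXA2, a pioneer factor of endoderm, had a cluster of 3 merged peaks (chr20:22568210-22579833), of which 2 lay in the noncoding gene LINC00261. It measured 3.14 and 2.39 kb in DMSO, against 3.35 kb in each I-BET151 library. Summits differed more than length did. The tallest reached 27.8 and 26.9 RPM in DMSO and 51.3 and 53.2 in I-BET151, a ratio of means of 1.91.

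MEIS1, a homeobox partner of PDX1 and HOX proteins, had a cluster of 4 merged peaks in a noncoding gene, at 2.80 and 2.45 kb in DMSO, against 2.84 kb in both I-BET151 libraries, a difference of 0.22 kb. The ONECUT2 cluster (3 merged peaks, homeobox factor of the gut and liver lineage) was covered over 2.91 and 2.74 kb against 3.37 and 2.66 kb. Its tallest summit was nonetheless higher in both I-BET151 libraries, at 41.1 and 44.3 RPM against 33.5 and 33.8.

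HNF4A, a nuclear receptor of endodermal epithelia, had a weak cluster of 3 merged peaks within the gene (chr20:44405934-44418642), of which 2 summits lay in coding exons. It measured 1.14 and 0.789 kb in DMSO, 0 kb in I-BET151 replicate 1 and 0.273 kb in I-BET151 replicate 2. Its tallest summit was 6.03 RPM in DMSO replicate 1, 4.17 in DMSO replicate 2 and 8.83 in I-BET151 replicate 2. The DMSO mean was the lowest of the named clusters, but the 1 I-BET151 peak stood above both DMSO summits. How close these peaks were to the limit of detection was not tested.

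Among 21 genes of MAP kinase feedback and receptors, FGFR3 and EPHA2, an ephrin receptor, were closest to a cluster. Both clusters were lower, as were 60.9% of all clusters, and FGFR3 lost its order with lists of equal length. The EPHA2 cluster (chr1:16167463-16184801, 7 merged peaks, intergenic) went from 3.17 and 2.30 kb to 1.37 and 0.825 kb. Its tallest member (chr1:16167463-16168024) stood at 25.5 and 24.8 RPM in DMSO, against 25.4 and 29.0 RPM in I-BET151. The member with the highest fold over background in DMSO (chr1:16181770-16182341) went from a fold of 14.0 and 13.6 to 2.62 and 4.09. Of the 7 members, 4 had no I-BET151 peak.

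Of 19 hepatic and intestinal genes, CDX2, the intestinal homeobox factor, and CEBPA, a liver factor, had clusters, which overlapped between the groups. The CDX2 cluster covered 2.80 and 2.69 kb in DMSO, against 2.87 and 2.78 kb in I-BET151, and the CEBPA cluster 5.20 and 4.31 kb against 4.72 and 4.10 kb.

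IER2, an immediate early gene, was the only one of 18 AP-1 and immediate early genes with a cluster. It measured 2.24 and 2.19 kb in DMSO, against 2.65 and 2.43 kb in I-BET151, an order that was lost with lists of equal length and with peaks of −log10 q of at least 5. ACTN4, an actin crosslinker and the only one of 18 actin and adhesion genes, had 2 clusters within the gene. One overlapped between the groups and the other (3 merged peaks) went from 3.16 and 2.74 kb to 3.38 and 3.31 kb.

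No cluster was closest to any of 15 endocrine genes, 22 epithelial and ductal genes, 25 mesenchymal and matrix genes, 14 YAP/TEAD target genes, 8 pluripotency genes or 8 genes of BET proteins and their elongation factor partner, and none of their starts lay in one. These genes can still have distal peaks outside clusters.

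**Figure D4:**
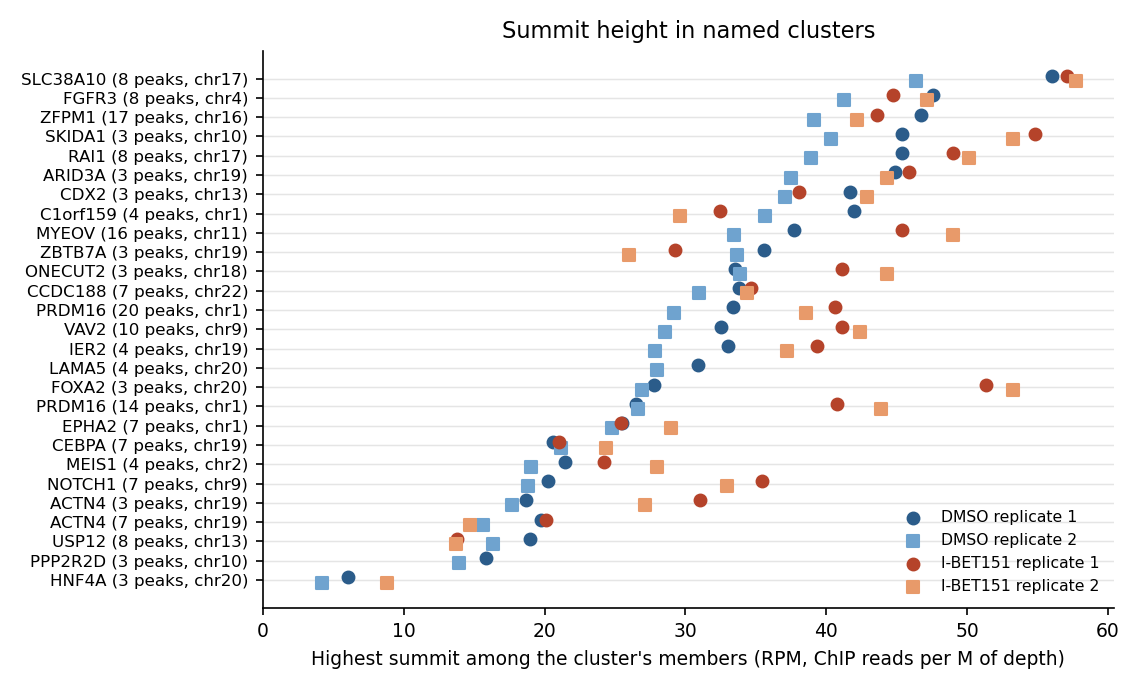
Height of the tallest member summit (RPM, horizontal axis) in each library for the 27 named clusters (rows, with the nearest gene, the number of merged peaks and the chromosome). Points are single libraries, and a point is missing where no peak was called or no read number could be worked out; FOXA2 and NOTCH1 show I-BET151 points well to the right of DMSO, and LAMA5 and PPP2R2D have no I-BET151 point.

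In the named clusters, height and coverage did not always go together. The MYEOV cluster, covered less after I-BET151, had its tallest summit at 37.7 and 33.4 RPM in DMSO, against 45.4 and 49.0 in I-BET151. The tallest summits at RAI1 and SLC38A10, also covered less, were higher as well. The tallest summit was picked in each library by itself, so its values need not come from 1 member. At RAI1 the member with the highest −log10 q in DMSO went from 27.8 and 24.2 RPM to 21.7 and 19.8. At SLC38A10 and MYEOV that member had the tallest summit in all 4 libraries. Those at C1orf159, ZBTB7A and USP12 were lower, like their coverage, and that at ZFPM1, covered more, overlapped between the groups. Summits of the members that remained were on the whole not lower. In the 360 members called in all 4 libraries the median was 19.7 and 18.2 RPM in DMSO and 19.5 and 19.7 in I-BET151. Of the 349 with a read number in each library, 46.4% were higher in both I-BET151 libraries and 28.7% lower. Over all 1170 such distal peaks these shares were 42.3 and 28.9%. The median ratio of I-BET151 to DMSO was 0.13 on the log2 scale in members, with an interquartile range from −0.22 to 0.40, and 0.07 in the other distal peaks. A peak must pass the threshold in both I-BET151 libraries to be counted here, which leaves out those that fell most. Removal of duplicate reads by the authors caps tall summits, and more so in a deep library.

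A smaller share of members than of other distal peaks had no I-BET151 peak. No peak of either I-BET151 library overlapped 256 of 773 members, 33.1% (Wilson 95% interval 29.9 to 36.5%). The share was 41.2% (39.1 to 43.3%) of the 2118 other distal peaks and 39% of all distal peaks. These intervals treat neighbouring peaks as independent and leave out the spread between libraries. The member share was 45.3% without I-BET151 replicate 1 and 36.5% without I-BET151 replicate 2. I-BET151 replicate 1 called 63.5% of members and 55.3% of other distal peaks, and I-BET151 replicate 2 called 54.7 and 49.2%. Conversely, 51.4% of members and 45.7% of other distal peaks were called in both I-BET151 libraries. Members were also found more often in both DMSO lists (74.1 against 67.6%) and had a higher −log10 q in DMSO, with medians of 16.5 and 15.2. Peaks were therefore also compared within classes of both measures.

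Among peaks of both DMSO lists, 23.2% (19.9 to 26.8%) of 573 members and 29.0% (26.7 to 31.4%) of 1431 other distal peaks had no I-BET151 peak, and 27.3% of all such peaks. Among peaks of a single DMSO list the shares were 61.5% (54.6 to 68.0%) and 66.5% (62.9 to 69.9%), and in both classes the intervals of members and others overlapped. Members were thus lower in each class, by a smaller margin than in the whole groups.

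Detection went with peak strength. When all distal peaks were divided into 3 classes by −log10 q in DMSO, 56.0% of weak, 38.5% of middle and 9.38% of strong members had no I-BET151 peak. The shares in the other distal peaks were 61.7, 48.1 and 11.8%. Members were lower in each class, and their Wilson intervals overlapped those of the other distal peaks in each. The strong class held 288 members with a median −log10 q of 42.7.

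Position within a cluster also went with detection. Of the 368 members at an edge of their cluster 39.9% had no I-BET151 peak, against 26.9% of the 405 inside. The strongest member of a cluster was missing in 17.4% of the 184 clusters, and the remaining 589 members in 38.0% of cases. Inside members were stronger than those at an edge, with a median −log10 q of 17.4 against 15.3, and larger clusters have more of them. The part of strength in this difference was not tested.

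Members were also split by distance to the chromosome end. Within 5 Mb of a chromosome end 33.8% of members had no I-BET151 peak, and 32.7% elsewhere. Those called in both I-BET151 libraries were 57.0% near an end and 48.4% elsewhere. Those called in only 1 were 9.13% (Wilson 95% interval 6.21 to 13.2%) near an end and 18.8% (15.7 to 22.4%) elsewhere. These intervals treat members of the same cluster as independent, so no difference is read from them. For other distal peaks the shares without an I-BET151 peak were 46.8 and 39.7%. Members near an end include those of the ZFPM1 cluster and the 2 large PRDM16 clusters. There 14 of 17, 17 of 20 and 14 of 14 members were called in both I-BET151 libraries, and 1, 1 and 0 in neither. The shares near an end lean on these few clusters and were not worked out without them.

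**Figure D5:**
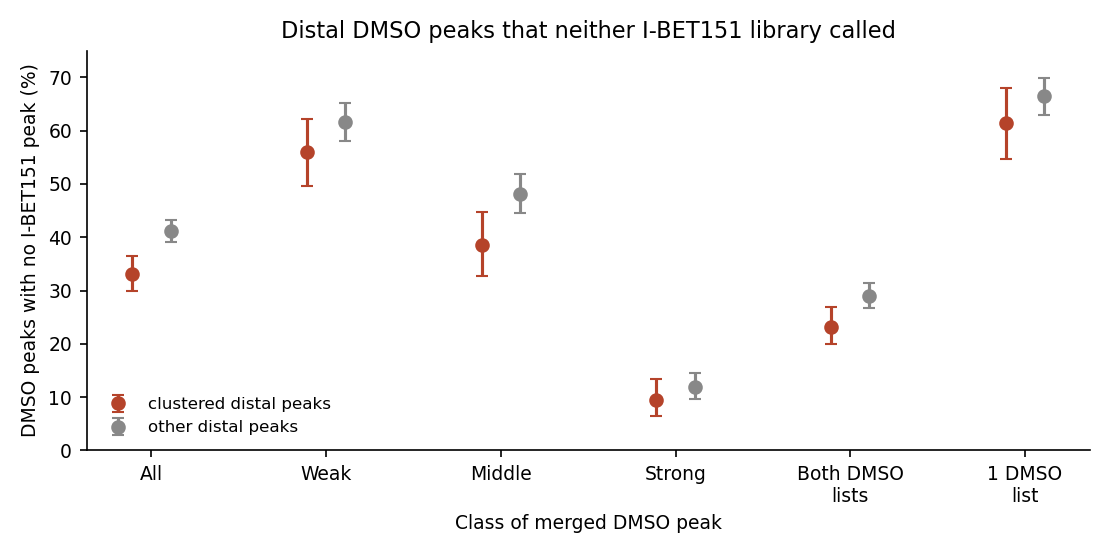
Share of merged distal DMSO peaks that neither I-BET151 library called (%, vertical axis), for clustered peaks (red) and other distal peaks (grey), over all peaks, in 3 classes of strength in DMSO and by the number of DMSO lists that held the peak; bars are Wilson 95% intervals. The share falls from 56.0% of weak to 9.38% of strong members, and members lie below the other peaks in each class.

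Sequence words were also compared between members that were kept and those that were not. The AP-1 word stood in 14.5% of the 256 members without an I-BET151 peak and in 10.1% of the 397 called in both I-BET151 libraries. The TEAD word stood in 28.1 and 21.7%, and the RBPJ word in 47.3 and 50.6%. Other distal peaks differed in the same way, with the AP-1 word in 14.8% of those without an I-BET151 peak and 9.40% of those called in both, and the TEAD word in 27.4 and 22.3%. By strength class, the AP-1 word stood in 17.0% of the 135 weak members without an I-BET151 peak and in 9.62% of the 52 called in both. In the middle class the shares were 12.8% of 94 and 10.7% of 103. In the strong class they were 7.41% of 27, which is 2 members, and 9.92% of 242. Among all members, observed over expected CG dinucleotides had a median of 0.28 in the 256 without an I-BET151 peak. The median was 0.33 in the 397 called in both. These are descriptions of sets that also differed in strength, and no test was made.

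Clusters were also found in the I-BET151 lists where DMSO had none. Of the 134 clusters set on both I-BET151 lists, 35 were touched by no DMSO cluster. They were covered over 56.8 and 46.3 kb in I-BET151 and over 33.0 and 28.8 kb in DMSO, so that DMSO peaks covered part of them. Some of the 35 were covered about as much in DMSO. The one nearest to CDC42EP1 was covered over 2.50 and 2.14 kb in I-BET151 and 2.63 and 2.35 kb in DMSO. For the one nearest to FOXD2 the lengths were 2.19 and 1.75 kb against 2.07 and 2.04 kb. The examples that follow were picked out after their values were seen, and all were covered more in I-BET151. The one nearest to ONECUT1, a homeobox factor of PPs (chr15:52784657-52806254, 6 merged peaks), was covered over 3.23 and 3.46 kb in I-BET151 and 1.57 and 1.33 kb in DMSO. The one nearest to SOX9, a factor that maintains PPs (3 merged peaks), was covered over 1.46 and 1.04 kb against 0.774 and 0.433 kb. That nearest to HOXA3 (5 merged peaks) was covered over 2.39 and 1.01 kb against 0.33 and 0.293 kb. The I-BET151 lists chose these clusters, so that they are the counterpart of the clusters lost from DMSO and carry the same advantage in the other direction.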

How the data were processed

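Reads were mapped by the authors to hg38 with Bowtie2 2.2.5, per the study's methods, which also name filters that removed duplicates and mitochondrial reads. Peaks were then called with MACS2 2.1.2 at default settings, 1 list per library. Each deposited list gives intervals and summits, a fold (ratio of ChIP to local background at the summit), −log10 p, −log10 q and a score, as the authors' caller wrote them. The score, which is 10 times −log10 q rounded down in the deposited lists, was not used. The lowest −log10 q of a list was 1.30 to 1.36. A fixed threshold leaves out weaker acetylation, and more so in a shallow library, and duplicate removal caps the height of summits.

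From the lists, distal peaks, clusters and covered lengths were computed in Python 3.11.15 with numpy 2.4.6, pandas 2.3.3, scipy 1.17.1 and pysam 0.24.0, with an overlap of at least 1 bp counted as shared. ChIP reads at summits and library depths were worked out from fold and p, the depths with an assumed genome size and fragment length. Where fold and p had 1 solution, 100% of peaks came out at whole reads within 0.02 reads, and 98.7 to 99.2% of peaks were resolved. The procedures were tested on simulated data. Groups and replicate numbers came from the library titles, and 4 input libraries had no list. Single values were tested by exact permutation over 4 libraries, and shares carry Wilson 95% intervals. What the rule used is described without a test. An order of groups means that the values of the 2 libraries of each group did not overlap.

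The clusters named are the 10 with the longest mean coverage in DMSO, the 5 largest falls and 5 largest rises among those whose groups did not overlap, and those closest to, or spanning the start of, a gene of 11 lists. Clusters on chromosome 8 were counted and no sequence of them was read for print. A marker gene and a sequence are not reported here. The members, the gene lists and the motif words were chosen with earlier results of these data known. The 3 strength classes divide all distal peaks evenly by −log10 q, with limits at 10.5 and 23.1. Alternatives covered the joining distance, the number of peaks, the distal distance, gene types, a stricter q, lists of equal length, each replicate left out and the replicate pairing.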

Additional observations from a re-analysis of the deposited data

Results flagged for a closer look

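The input libraries, which had no list of their own, stood high at the clusters. At the members called in each library, the local input level worked out from the fold and the p-value had a median of 19.6 and 21.1 times the genome-wide input level in DMSO replicates 1 and 2, and of 21.0 and 24.4 times in I-BET151 replicates 1 and 2. These values were noted because the inputs are outside the main measurement. At the other distal peaks called in each library the medians were 16.3, 18.9, 24.5 and 27.3 times. The peak caller takes the local background as the highest of several windows, so that the values lean upwards, and the part of the input in the peak calls was not tested.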

How the results depend on the processing

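Of the summary results, 2 values turned: with lists of equal length the covered length in clusters of all 4 lists was 6.86 kb higher in I-BET151, and in clusters set on the I-BET151 lists it was 33.2 kb higher. With lists of equal length the difference in the DMSO clusters was −45.6 kb, 25.8% of members had no I-BET151 peak, 58 clusters were lower and 12 higher, and the difference in clusters per library was −0.50 against −46. With at least 4 merged peaks the difference in DMSO clusters was −47.7 kb, with 53 clusters lower and 10 higher. With peaks over 1 kb from a start taken as distal it was −135 kb. With starts of any gene type 12 clusters were higher, and with bases inside the members alone 8 were. When each replicate was left out in turn, members without an I-BET151 peak ran from 26.96 to 45.3%, highest without I-BET151 replicate 1, and clusters with more coverage ran from 14 to 45, highest without I-BET151 replicate 2. The difference in clusters of all 4 lists then ran from −101 kb without I-BET151 replicate 1 to −30.2 kb without I-BET151 replicate 2, and that in clusters per library from −60.5 to −31.5. Settings for the counts of lower and higher clusters and for single clusters were chosen after seeing the data.

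With the replicate number as a replicate block, the mean of the paired differences was −46 clusters per library, −65.5 kb in clusters of all 4 lists and −95.0 kb in the DMSO clusters, as without it, and 124 clusters were lower and 25 higher in both pairs. The replicate differences of the groups correlated with r = 0.17 over 224 clusters, and the labels do not tie same-numbered libraries together. Of 20 named clusters whose groups did not overlap, 17 kept their order with lists of equal length and 19 with −log10 q of at least 5. Of 216 values of single clusters under other settings, 14 moved by more than 1 SD of the replicates (the larger of the group SDs), such as HNF4A from −0.83 to −0.28 kb and EPHA2 from −1.64 to −0.92 kb with lists of equal length. FGFR3, SLC38A10 and IER2 lost it in the first and IER2 in the second. With 2 libraries a group no p below 0.333 was possible, and the lists set a floor: acetylation under the threshold, at these depths, is not seen.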
